A study of Mus musculus with 29 samples.

Results

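The Myc family and the Max network were followed as 10 genes in RNA-seq libraries of mouse bone marrow stem and progenitor cells: the Myc paralogs Myc, Mycn and Mycl, their common partner Max, the Max-binding repressors Mxd1, Mxd3, Mxd4, Mxi1 and Mnt, and the Max-like gene Mlx. The members were chosen by name, and all 10 symbols were found among 38924 gene identifiers. The 29 libraries fell into 8 groups from C57BL/6 mice, described as young and sampled 6 weeks after pIpC, a synthetic double-stranded RNA that induces interferon and that all groups received. Dnmt3a-mutant LT-HSC (n = 3), ST-HSC (n = 4), MPP3 (n = 4) and MPP4 (n = 4) were set against control LT-HSC (n = 4), ST-HSC (n = 3), MPP3 (n = 3) and MPP4 (n = 4). Dnmt3a encodes a de novo DNA methyltransferase. Which Dnmt3a allele the mutants carry, what drives its recombination and what genotype the controls have are not given in the sources used here, and the design text counts 3 mutant MPP3 libraries where the sample list has 4. The labels do not tie replicates to animals, and p-values therefore measure the spread between these libraries, which may be technical.

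LT-HSC and ST-HSC are the long-term and short-term repopulating hematopoietic stem cells, MPP3 is a multipotent progenitor biased to myeloid output and MPP4 one biased to lymphoid output. Myc proteins bind DNA as dimers with Max at the E-box CACGTG and raise transcription of genes of growth, ribosome biogenesis and metabolism. Mxd and Mnt proteins compete for the same partner and the same sites and recruit Sin3-HDAC complexes, which repress. In mouse bone marrow Myc and Mycn are known to act partly in each other's place: stem cells express both, and combined loss of both is known to be far more damaging to blood formation than loss of either.

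The E-box itself was looked for in the promoter windows of the members, since it is the site that ties the network together. RefSeq windows (GRCm38.p6, 250 bases before to 50 after each start) were held for 9 of the 10 members. CACGTG, which reads the same on both strands, was present in 4 of them, Max, Mxd4, Mnt and Mlx. Of all 32851 windows 7.15% held it, and of all 27025 genes 8.09%. Each line shows 46 bases on the gene's own strand with the motif in capitals.
Max, chr12:76962226-76962271, minus strand: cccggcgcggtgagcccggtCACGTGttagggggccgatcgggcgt
Mxd4, chr5:34187904-34187949, minus strand: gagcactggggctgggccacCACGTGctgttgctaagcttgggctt
Mnt, chr11:74830781-74830826, plus strand: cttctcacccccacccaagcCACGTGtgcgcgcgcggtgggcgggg
Mlx, chr11:101087230-101087275, plus strand: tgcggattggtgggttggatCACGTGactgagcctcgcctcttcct
The motif began 3 bases before the start in Max, 219 in Mxd4, 123 in Mnt and 40 in Mlx. A match is a description of the letters and was tied to no binding data.

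Mycn was the member called in the most population comparisons (6 of 12), and its 250 bases before the start (minus strand) are shown for that reason. They held no CACGTG. The looser pattern CANNTG, which was present in 72.3% of all windows, is in capitals.
Mycn, chr12:12941837-12942086, minus strand: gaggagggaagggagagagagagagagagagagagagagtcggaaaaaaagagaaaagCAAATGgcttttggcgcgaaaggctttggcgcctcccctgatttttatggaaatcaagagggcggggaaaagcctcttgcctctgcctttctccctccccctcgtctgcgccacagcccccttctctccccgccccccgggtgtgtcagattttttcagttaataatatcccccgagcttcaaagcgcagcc

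Library totals lay between 6133994 and 10374672 estimated counts, with a median of 8154515, and mitochondrial rRNA took 13.4% to 31.2% of them. Levels are given as CPM on TMM-scaled libraries, and a call means an adjusted p under 0.05 over all genes tested (edgeR quasi-likelihood test, Benjamini-Hochberg). Whole-gene Dnmt3a was at 92.3 to 222 CPM in the mutant libraries and 82.0 to 167 CPM in the control libraries, which overlap, and such counts do not check the genotype. The sorted labels fitted their markers in part. Flt3, a receptor gene of MPP4, was highest in MPP4 (409 to 460 CPM in mutant, 379 to 460 CPM in control), but the 9 MPP4 markers, Ighm among them, summed to 3957 to 24262 CPM in mutant MPP3 and 3324 to 15449 CPM in control MPP3, against 1610 to 2035 CPM in mutant MPP4 and 1682 to 1853 CPM in control MPP4. Mpo, the myeloperoxidase gene, was highest in MPP3 (3583 to 9612 CPM in mutant, 5519 to 7928 CPM in control). Slamf1, which encodes the LT-HSC antigen CD150, was at 31.1 to 54.1 CPM in mutant LT-HSC and 14.2 to 29.8 CPM in control LT-HSC. The 10 LT-HSC markers together did not separate LT-HSC from ST-HSC, with sums of 1479 to 1769 CPM in mutant LT-HSC and 913 to 1535 CPM in control LT-HSC, against 1262 to 2412 CPM in mutant ST-HSC and 1156 to 2010 CPM in control ST-HSC. Slamf1 was also at 406 CPM in mutant ST-HSC replicate 2, against 0.777 to 1.83 CPM in the other mutant ST-HSC libraries. The neutrophil gene S100a8 was at 349 to 2260 CPM in 3 control LT-HSC libraries (replicates 1 to 3), at 3.67 CPM in the fourth, and at or below 115 CPM in all libraries of other groups. The 9 erythroid markers summed to 22101, 4984 and 7017 CPM in control LT-HSC replicates 1, 2 and 3 and 376 CPM in replicate 4, against 253 to 624 CPM in mutant LT-HSC. The MPP3 libraries held 1380 to 14832 CPM (mutant) and 1000 to 6112 CPM (control) of 9 antibody-secreting and B cell markers together, against 9.44 to 114 CPM in mutant LT-HSC and 10.9 to 287 CPM in control LT-HSC. Control ST-HSC libraries held 7.23, 79.4 and 1777 CPM of these markers, the last above the lowest MPP3 library of each genotype. Mutant ST-HSC libraries held 9.73 to 130 CPM. Values without control LT-HSC replicates 1 to 3 are given beside the calls of 2 groups that use control LT-HSC. Every MPP3 library held at least 1000.03 CPM of the B cell markers, so no fit of MPP3 without such libraries could be made.

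Per kilobase of exon, Myc was the most abundant member, with a median of 108 CPM per kb over the 29 libraries, and Max was next at 39.8. Mnt followed at 10.7, then Mycn at 6.98, Mxd4 at 6.64, Mxd1 at 6.14, Mlx at 5.77 and Mxi1 at 4.54. Mxd3 at 1.67 and Mycl at 0.0355 CPM per kb closed the order. All Max libraries lay above all Mnt libraries (19.995 to 87.0 against 5.17 to 13.2 CPM per kb). Every other pair of neighbouring ranks overlapped in range over the libraries, Myc reaching down to 58.2. Within each library, Myc lay above Max. The order from Mnt down is one of medians. Prelid1 shares 105 exon bases with Mxd3, Psmc3ip 385 with Mlx, Gm10197 194 with Mxi1 and the antisense gene Gm42846 514 with Mxd4. Whether counting used strand is unstated in the sources used here, so the counts of those 4 members are uncertain to that extent.

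**Figure D1:**
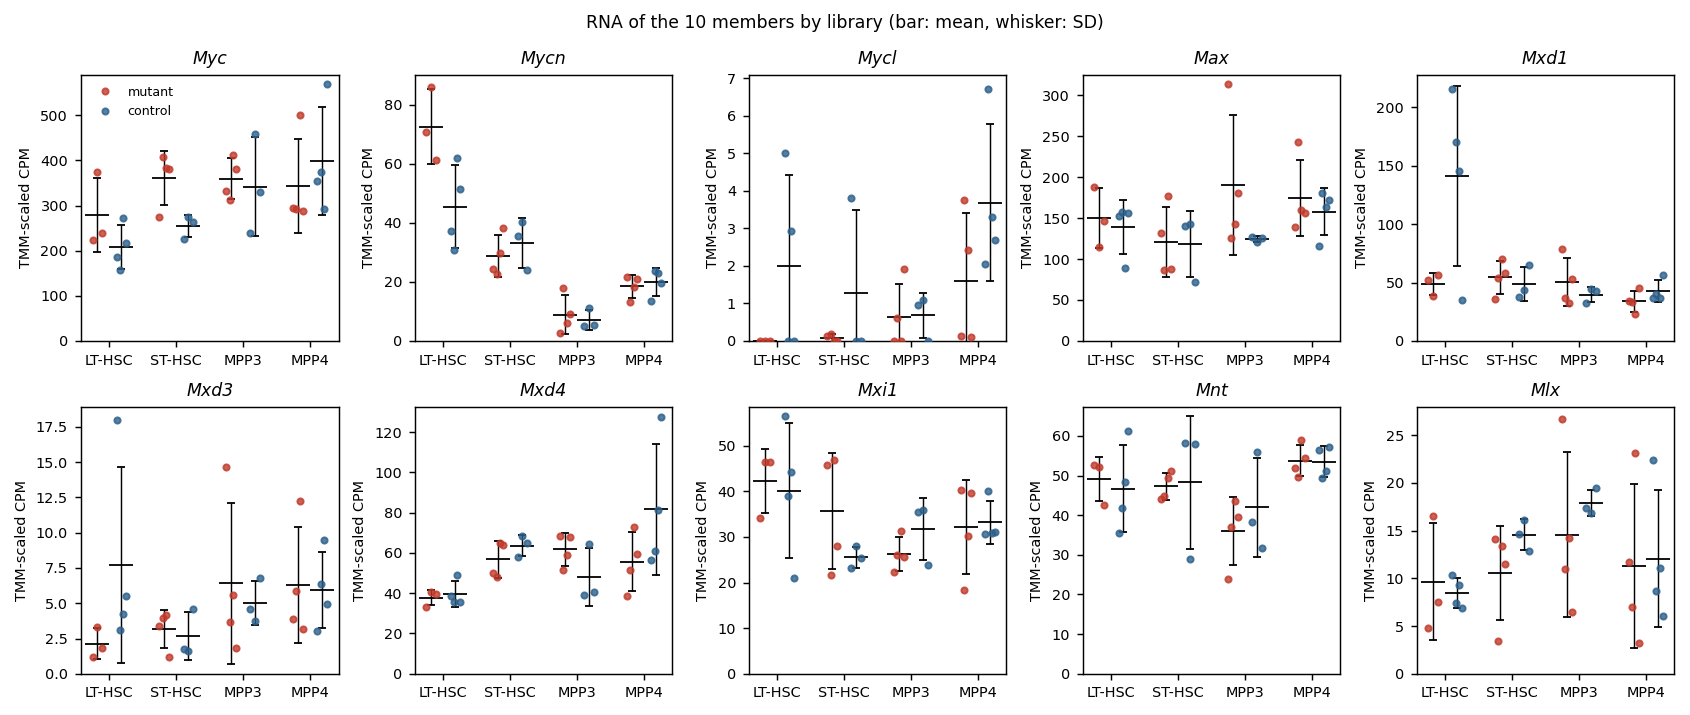
TMM-scaled CPM of the 10 members (1 panel each, linear axis from 0) in the 29 libraries, mutant in red left of control in blue, with the mean as a bar and the SD as a whisker. Mycn steps down in both genotypes, with all LT-HSC libraries above 30 CPM and all MPP3 libraries below 19, and 3 of 4 control LT-HSC libraries stand out in Mxd1.

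Mycn (ENSMUSG00000037169, GRCm38 chr12:12936093-12941914, minus strand), the paralog known from neural tissue and early development, was on average highest in LT-HSC and lowest in MPP3 of both genotypes. In LT-HSC it was at 70.6, 86.0 and 61.1 CPM in mutant libraries and 37.2, 30.9, 62.1 and 51.4 CPM in control libraries. In ST-HSC it was at 24.3, 22.6, 29.8 and 38.3 CPM in mutant libraries and 35.5, 40.4 and 23.9 CPM in control libraries. The ST-HSC libraries of the mutant all lay below the mutant LT-HSC libraries, while the control ST-HSC and LT-HSC libraries overlapped. In MPP3 it was at 2.78, 18.1, 5.92 and 8.98 CPM in mutant libraries and 5.17, 11.2 and 5.401 CPM in control libraries. In MPP4 it was at 21.8, 13.2, 18.2 and 20.9 CPM in mutant libraries and 13.5, 23.7, 23.0 and 19.6 CPM in control libraries. No MPP3 or MPP4 library reached an LT-HSC library of either genotype.

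Mycn was 8.18-fold lower in mutant MPP3 than in mutant LT-HSC (8.94 ± 6.61 against 72.6 ± 12.6 CPM, SD, n = 4 and 3; log2 fold change -3.03 ± 0.44, SE; adjusted p = 0.000481). In the control libraries it was 6.26-fold lower in MPP3 than in LT-HSC (7.24 ± 3.39 against 45.4 ± 14.1 CPM, n = 3 and 4; -2.65 ± 0.38; adjusted p = 0.000799). In bulk RNA, fewer cells that express a gene and less RNA of it per cell cannot be told apart. These adjusted p-values are from edgeR's quasi-likelihood test, as are all those given below unless another tool is named. Mycn was the only member of 10 called in mutant MPP3 against mutant LT-HSC, where 3.09% of all genes tested were called, and 1 of 2 members called in control MPP3 against control LT-HSC, where 1.46% were. Both calls held in 24 of 24 alternative analyses, with adjusted p up to 0.00457 in the mutant and 0.0112 in the control. Without control LT-HSC replicates 1 to 3 together, the control change was -2.83 (adjusted p = 0.00649). B cell markers stood at higher summed levels in MPP3 libraries, as given above, and their part in the result was not tested.

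The step was smaller in MPP4. Mycn was 3.93-fold lower in mutant MPP4 than in mutant LT-HSC (18.5 ± 3.86 against 72.6 ± 12.6 CPM; -1.97 ± 0.43; adjusted p = 0.0132) and 2.28-fold lower in control MPP4 than in control LT-HSC (19.95 ± 4.65 against 45.4 ± 14.1 CPM; -1.19 ± 0.32; adjusted p = 0.0388). It was the 1 member called in the mutant comparison, where 2.17% of all genes were called, and 1 of 4 in the control comparison, where 4.20% were. The mutant call was lost without mutant MPP4 replicate 2 (adjusted p = 0.0523) or mutant LT-HSC replicate 2 (0.0819). The control call was lost without any 1 of control MPP4 replicates 1 to 4 or control LT-HSC replicates 3 and 4 (adjusted p up to 0.132), and it held in 15 of 24 alternatives. Without control LT-HSC replicates 1 to 3 together, the control difference was -1.37 (adjusted p = 0.341).

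Against ST-HSC, Mycn was 3.22-fold lower in mutant MPP3 (-1.69 ± 0.41; adjusted p = 0.0214) and 4.62-fold lower in control MPP3 (-2.21 ± 0.39; adjusted p = 0.00643), again as the only member called. Of all genes, 4.40% were called in mutant MPP3 against mutant ST-HSC and 2.02% in control MPP3 against control ST-HSC. The mutant call stood without ST-HSC replicate 2, the library high in Slamf1 (-1.77; adjusted p = 0.0234), and was lost without ST-HSC replicate 4 (0.0628) or MPP3 replicate 3 (0.0726). The control call was lost without control MPP3 replicate 3 (0.0535). It stood with each control ST-HSC library left out in turn, among them the library at 1777 CPM of B cell markers. Between ST-HSC and LT-HSC, Mycn differed by -1.35 (95% interval -2.23 to -0.46; adjusted p = 0.310) in the mutant and -0.44 (-1.15 to 0.28; 0.753) in the control. Between MPP4 and MPP3 it differed by 1.06 (0.21 to 1.90; 0.280) in the mutant and 1.46 (0.70 to 2.22; 0.0573) in the control. In MPP4 over ST-HSC the Mycn difference was -0.63 (95% interval -1.46 to 0.20, adjusted p = 0.560) in the mutant. In the control it was -0.75 (-1.46 to -0.04, adjusted p = 0.304).

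No member was called in 6 of the 12 population comparisons: ST-HSC against LT-HSC (0.298% of all genes called in mutant, 0.174% in control), MPP4 against ST-HSC (2.33% and 1.66%) and MPP4 against MPP3 (1.37% and 1.14%). At an unadjusted p under 0.05, 2 members in mutant and 4 in control ST-HSC against LT-HSC passed, where 7.94% and 10.1% of all genes did. In each genotype 2 members passed in MPP4 against ST-HSC (13.2% of all genes in mutant, 14.9% in control) and 2 in MPP4 against MPP3 (11.5% and 11.1%). DESeq2 called Mxd1 in control ST-HSC against control LT-HSC and Mycn in control MPP4 against control MPP3, and no member in the other 4. Comparisons within a genotype share libraries and are not independent. In a test of any difference among the 4 populations, Mycn alone was called in the mutant (adjusted p = 0.000664), where 6.28% of all genes were, and Mycn (0.00128) and Mxd1 (0.0105) in the control, where 5.72% were.

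**Figure D2:**
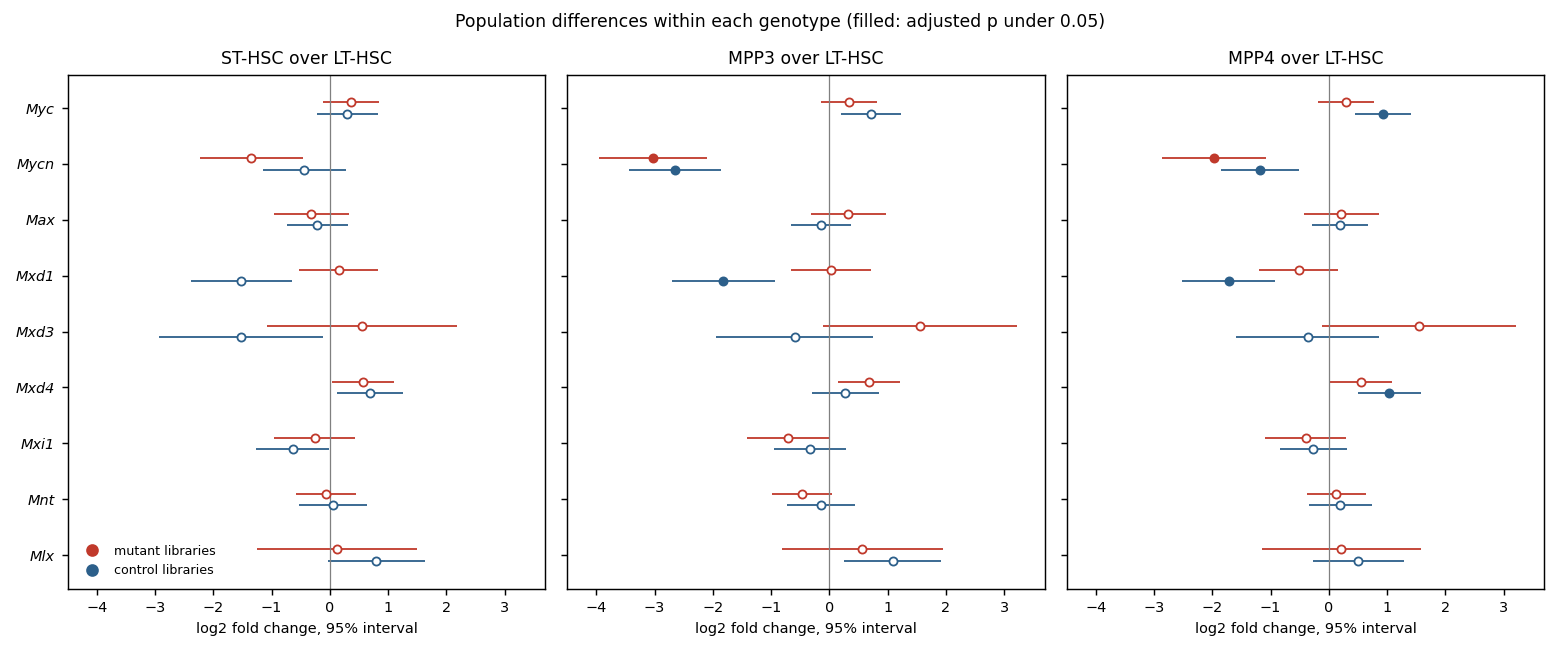
Log2 fold change with its 95% interval for 9 members in ST-HSC, MPP3 and MPP4 over LT-HSC, mutant in red above control in blue, filled where the adjusted p was under 0.05. Mycl is left out because 12 libraries had no count of it. Mycn lies left of 0 in all 3 panels, at -3.03 in mutant and -2.65 in control MPP3.

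Myc (ENSMUSG00000022346, GRCm38 chr15:61985391-61990374, plus strand), the general growth regulator of the family, was called in 1 of the 12 population comparisons. It was at 225, 374 and 239 CPM in mutant LT-HSC and 186, 158, 272 and 218 CPM in control LT-HSC. In ST-HSC it was at 274, 408, 384 and 382 CPM in mutant libraries and 227, 274 and 264 CPM in control libraries. ST-HSC was the population in which mutant and control libraries did not overlap for Myc, with the lowest mutant library at 273.96 CPM and the highest control library at 273.68 CPM. In MPP3 it was at 333, 313, 412 and 382 CPM in mutant libraries and 239, 458 and 329 CPM in control libraries. In MPP4 it was at 294, 294, 500.1 and 289 CPM in mutant libraries and 355, 375, 293 and 570 CPM in control libraries. The MPP3 and MPP4 libraries overlapped between genotypes, and 1 library of each MPP4 group stood well above the others.

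Myc was 1.91-fold higher in control MPP4 than in control LT-HSC (398 ± 120 against 208 ± 48.8 CPM, SD, n = 4 each; 0.93 ± 0.23; adjusted p = 0.0233). The call was lost without control MPP4 replicate 4, the library at 570 CPM (0.71; adjusted p = 0.117), without control LT-HSC replicate 1 (0.0643) or 2 (0.0961), and without LT-HSC replicates 1 to 3 together (0.86; 0.559). In the mutant the same difference was 0.29 (95% interval -0.18 to 0.77; adjusted p = 0.827), at 344 ± 104 CPM in MPP4 and 279 ± 82.3 CPM in LT-HSC. Whether the genotypes differ in this step was tested as part of the interaction given below, which called no gene. Myc in MPP3 over LT-HSC differed by 0.34 (-0.14 to 0.82; 0.565) in the mutant and 0.72 (0.21 to 1.23; 0.183) in the control.

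The balance between the paralogs is shown by their shares. Per kilobase of exon, Mycn made up 17.99 ± 2.36% of the summed Myc, Mycn and Mycl level in mutant LT-HSC and 14.97 ± 1.23% in control LT-HSC. It made up 6.21 ± 1.40% in mutant ST-HSC and 9.70 ± 2.41% in control ST-HSC, and 2.07 ± 1.72% in mutant MPP3 and 1.68 ± 0.320% in control MPP3. In MPP4 its share was 4.45 ± 1.45% in mutant and 4.18 ± 1.56% in control libraries. All LT-HSC libraries of both genotypes lay above all other libraries in this share, and Myc made up nearly all of the remainder. The shares are a description of the same counts as above and were given no test of their own.

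**Figure D3:**
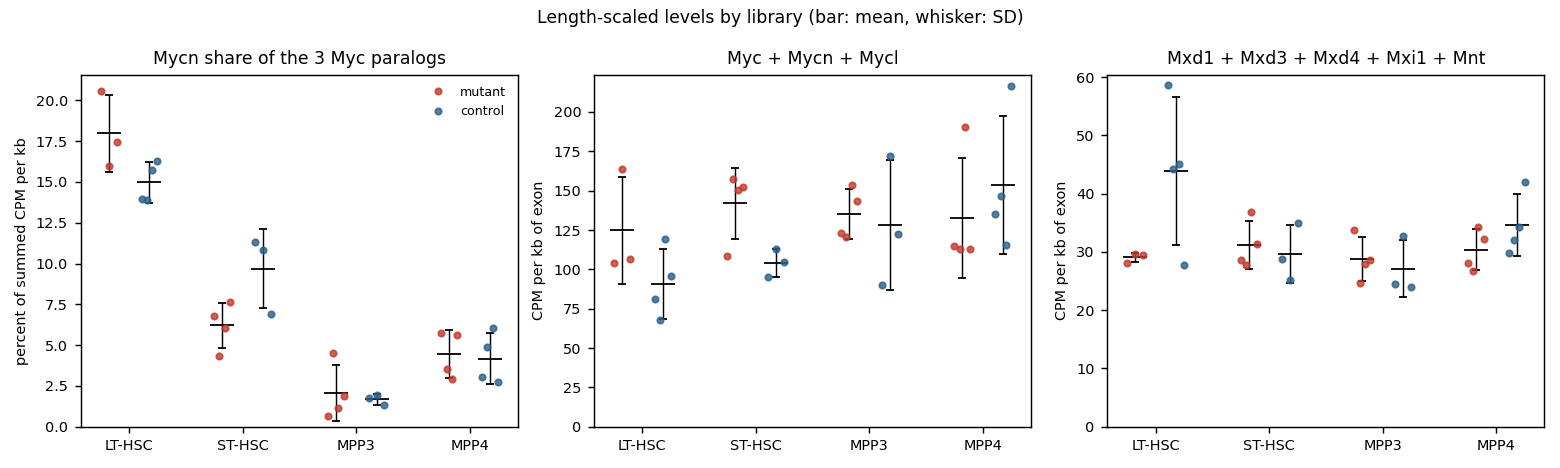
Mycn share of the 3 Myc paralogs (percent of summed CPM per kb), the summed paralogs and the summed repressors Mxd1, Mxd3, Mxd4, Mxi1 and Mnt (CPM per kb), by library, mutant in red left of control in blue, with mean and SD. The Mycn share averages 17.99% and 14.97% in mutant and control LT-HSC and 2.07% and 1.68% in mutant and control MPP3.

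Per kilobase of exon, the summed paralogs exceeded the summed repressors in every library. This order depends on the length scaling. In CPM, control LT-HSC replicate 1 held 216 of Mxd1 and 56.5 of Mxi1, against 186 of Myc, 37.2 of Mycn and 5.01 of Mycl. The ratio of paralogs to repressors per kilobase was 4.28 ± 1.07 in mutant LT-HSC and 2.25 ± 0.983 in control LT-HSC. It was 4.59 ± 0.841 in mutant ST-HSC and 3.59 ± 0.793 in control ST-HSC. In MPP3 it was 4.76 ± 0.791 in mutant and 4.67 ± 0.880 in control libraries, and in MPP4 4.34 ± 0.869 in mutant and 4.41 ± 0.744 in control libraries. The low mean of control LT-HSC came with 3 libraries high in Mxd1, described below. It also came with the lowest mean paralog sum of all groups (91.0 ± 22.3 CPM per kb, against 104 ± 8.92 in control ST-HSC, the next).

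Mycl (ENSMUSG00000028654, GRCm38 chr4:122995652-123002485, plus strand), the third paralog and known from lung cancer and dendritic cells, was close to absent. It had no count in 12 of 29 libraries, where 3 counts, the floor used here, correspond to 0.288 to 0.564 CPM. Mutant LT-HSC had 0, 0 and 0 counts and control LT-HSC 35, 0, 25 and 0. Mutant ST-HSC had 1, 1, 0 and 0 counts and control ST-HSC 35, 0 and 0. Counts thus appeared in some libraries of a group and not in others. Mutant MPP3 had 0, 5, 0 and 17 counts and control MPP3 7, 8 and 0. Mutant MPP4 had 1, 30, 20 and 1 counts and control MPP4 15, 70, 22 and 27. Control MPP4 was the one group with more than the floor in every library. Mycl passed the filter on low counts in the population comparisons and in mutant against control MPP4, but not in the other 3 populations between genotypes, and it was called nowhere. The floors cover counting error only, while the 95% intervals given here come from the fits and include the spread between libraries.

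Max (ENSMUSG00000059436, GRCm38 chr12:76937269-76962201, minus strand), the partner every Myc and Mxd protein needs, was detected at 71.9 CPM or more in every library. It was at 188, 115 and 147 CPM in mutant LT-HSC and 153, 157, 89.0 and 156 CPM in control LT-HSC. In ST-HSC it ranged from 87.0 to 177 CPM in mutant and 71.9 to 143 CPM in control libraries. In MPP3 it ranged from 125 to 313 CPM in mutant and 120 to 127 CPM in control libraries, and in MPP4 from 139 to 243 CPM in mutant and 116 to 181 CPM in control libraries. The groups overlapped in each pair that was compared, and Max was called in no comparison.

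Mxd1 (ENSMUSG00000001156, GRCm38 chr6:86647042-86669161, minus strand), a repressor known to rise as granulocytes mature, was set apart by control LT-HSC. It was at 51.8, 38.4 and 56.1 CPM in mutant LT-HSC and 216, 170, 145 and 34.7 CPM in control LT-HSC. In every other group it lay between 23.4 and 78.7 CPM. The high libraries were control LT-HSC replicates 1, 2 and 3, the libraries with 349 to 2260 CPM of S100a8, and replicate 4, with 3.67 CPM of S100a8, was the lowest LT-HSC library in Mxd1. The same 3 libraries had the high erythroid marker sums given above. The 10 neutrophil markers summed to 111 to 492 CPM in mutant LT-HSC and 105 to 12079 CPM in control LT-HSC, and all 10 were lower in control MPP3 and in control MPP4 than in control LT-HSC, with none called in MPP3 and 1 called in MPP4. Over the 29 libraries, log2 Mxd1 and log2 S100a8 had Pearson's r = 0.725, a description in which 3 libraries of 1 group stand far from the rest.

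Mxd1 was 3.30-fold lower in control MPP4 than in control LT-HSC (-1.72 ± 0.38; adjusted p = 0.0132) and 3.53-fold lower in control MPP3 (-1.82 ± 0.42; adjusted p = 0.0375). Without control LT-HSC replicates 1 to 3 together, both differences turned, to 0.29 in MPP4 (adjusted p = 0.949) and 0.19 in MPP3 (0.937), with 1 control LT-HSC library left. The MPP3 call held in 10 of 24 alternatives and the MPP4 call in 20 of 24. In the mutant, Mxd1 differed by -0.52 (95% interval -1.20 to 0.16; adjusted p = 0.706) in MPP4 over LT-HSC and 0.03 (-0.65 to 0.71; 0.988) in MPP3 over LT-HSC.

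**Figure D4:**
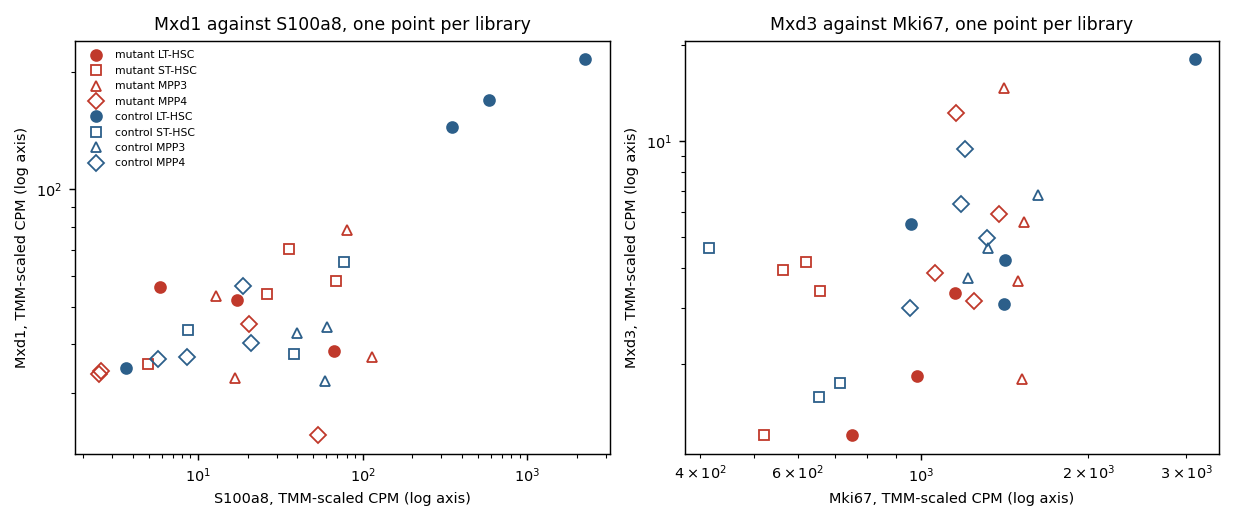
Mxd1 against the neutrophil gene S100a8 (left) and Mxd3 against the proliferation gene Mki67 (right), TMM-scaled CPM on log axes, 1 point per library, filled points for LT-HSC, mutant in red and control in blue. The 3 control LT-HSC libraries at 145 to 216 CPM of Mxd1 are those at 349 to 2260 CPM of S100a8.

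Mxd3 (ENSMUSG00000021485, GRCm38 chr13:55325168-55329823, minus strand), unlike other Mxd genes known from cycling cells in S phase, was the least abundant repressor. It was at 1.203, 3.34 and 1.83 CPM in mutant LT-HSC and 18.03, 3.09, 4.23 and 5.51 CPM in control LT-HSC. Elsewhere it lay between 1.201 and 14.7 CPM. The highest value belonged to control LT-HSC replicate 1, which also held the most Mki67 (3113 CPM, against 415 to 1625 CPM in the other libraries). Mxd3 and Mki67 had r = 0.542 over the 29 libraries, as a description, and Mxd3 was called in no comparison.

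Mxd4 (ENSMUSG00000037235, GRCm38 chr5:34173883-34187720, minus strand), a repressor known from differentiating tissues, was the one repressor called higher in a progenitor, control MPP4. It was at 38.4, 51.7, 73.1 and 59.5 CPM in mutant MPP4 and 33.4, 40.5 and 39.6 CPM in mutant LT-HSC. In control MPP4 it was at 56.3, 61.2, 81.3 and 128 CPM, and in control LT-HSC at 38.5, 35.8, 49.2 and 35.7 CPM. The control groups did not overlap, and the mutant groups did by 1 library. Control MPP4 was 2.05-fold above control LT-HSC (1.04 ± 0.26; adjusted p = 0.0238), and the mutant difference was 0.55 (95% interval 0.02 to 1.08; adjusted p = 0.446). The control call was lost without MPP4 replicate 3 (adjusted p = 0.0519) or 4 (0.73; 0.133), without LT-HSC replicate 1, 2 or 4 (0.0508 to 0.0836) and without LT-HSC replicates 1 to 3 together (1.18; 0.450).

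Mxi1 (ENSMUSG00000025025, GRCm38 chr19:53310518-53375810, plus strand) and Mnt (ENSMUSG00000000282, GRCm38 chr11:74830920-74845725, plus strand), the repressor present in most tissues, were called in no comparison. Mxi1 ranged from 18.3 to 56.5 CPM over the 29 libraries, with both extremes in single libraries of mutant MPP4 and control LT-HSC. Mnt ranged from 23.9 to 61.1 CPM and averaged 53.8 ± 3.99 CPM in mutant MPP4 and 53.5 ± 3.87 CPM in control MPP4. Mlx (ENSMUSG00000017801, GRCm38 chr11:101087277-101092207, plus strand), which pairs with the Mondo proteins Mlxip and Mlxipl in place of Max, was at 4.81, 16.6 and 7.56 CPM in mutant LT-HSC and 10.3, 7.37, 9.28 and 6.92 CPM in control LT-HSC. In MPP3 it was at 26.7, 10.9, 14.2 and 6.51 CPM in mutant and 17.4, 16.8 and 19.5 CPM in control libraries. The control MPP3 libraries lay above the control LT-HSC libraries, the mutant ones overlapped, and neither difference was called.

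In the comparison of mutant with control cells, which asks what the Dnmt3a mutation does to the network, no member was called by edgeR in any of the 4 populations. Of all genes, 0.00737% were called in MPP3 and 0% in each of LT-HSC, ST-HSC and MPP4. Members tested were 9 in LT-HSC, ST-HSC and MPP3 and 10 in MPP4. At an unadjusted p under 0.05, 3 members passed in LT-HSC, 1 in ST-HSC and none in MPP3 or MPP4, where 8.16%, 3.73%, 2.18% and 3.10% of all genes did. DESeq2 called 1 member, Mxd1 in LT-HSC.

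Mycn averaged 72.6 ± 12.6 CPM in mutant LT-HSC and 45.4 ± 14.1 CPM in control LT-HSC (SD, n = 3 and 4; 0.66, 95% interval 0.09 to 1.24; adjusted p = 0.524), and the lowest mutant library (61.1 CPM) lay just below the highest control library (62.1 CPM). In mutant over control LT-HSC, Mxd3 differed by -1.86 (-3.39 to -0.33, adjusted p = 0.509). With each library left out in turn, the Mxd3 difference ran from -2.33 to -1.02 and was never called. Mxd1 differed by -1.54 (-2.82 to -0.27, adjusted p = 0.518) in mutant over control LT-HSC. Without control LT-HSC replicate 4 the Mxd1 difference was -1.85 and was called (adjusted p = 0.000556), and DESeq2 called it with all libraries (adjusted p = 0.0155). It was also called with all libraries kept and the replicate number in the title as a block (-1.87; adjusted p = 0.000392). Without replicates 1 to 3 it turned to 0.49 (adjusted p = 1.00). The Mxd1 call in LT-HSC thus changed with the control libraries kept and with the model. In ST-HSC, Myc averaged 362 ± 59.9 CPM in mutant and 255 ± 24.9 CPM in control libraries (0.50, 0.05 to 0.96; adjusted p = 0.998), the single case among 10 members and 4 populations in which the groups did not overlap. The control ST-HSC libraries include the one at 1777 CPM of B cell markers. With each library left out in turn, the Myc difference in ST-HSC ran from 0.43 to 0.61. Among all genes tested, the mutant and control libraries did not overlap for 4.89% in ST-HSC, against 7.31% in LT-HSC, 4.44% in MPP3 and 2.34% in MPP4.

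**Figure D5:**
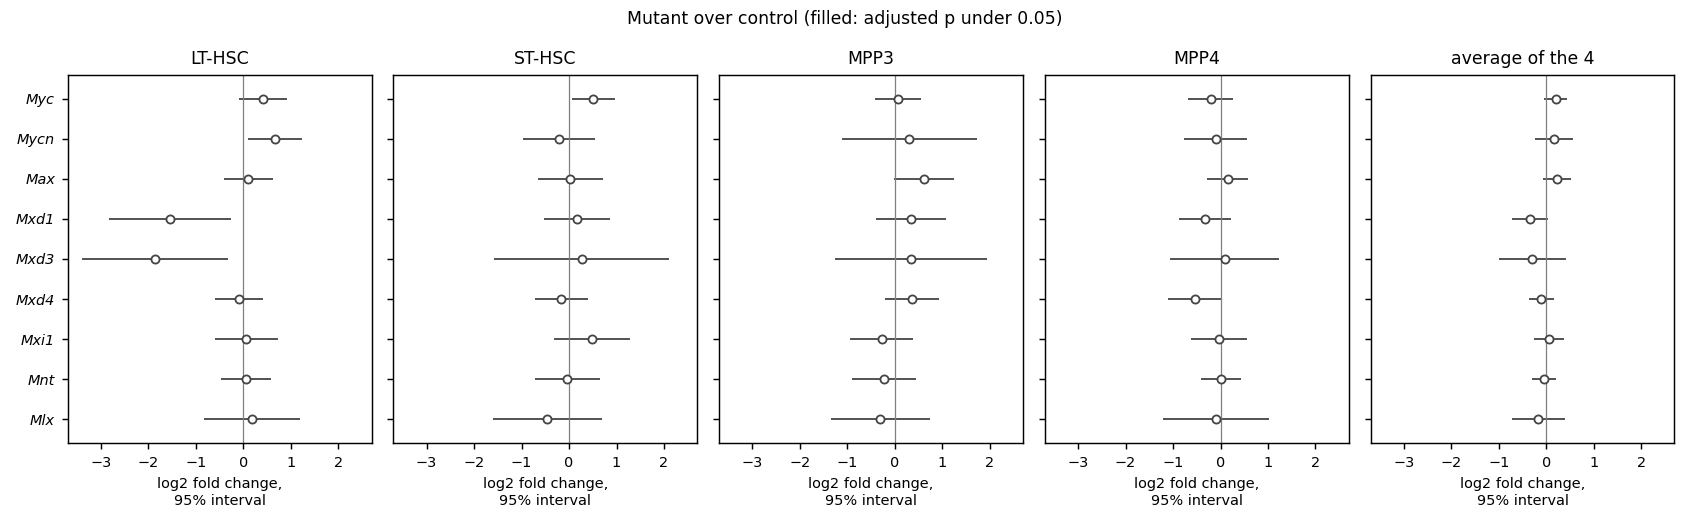
Log2 fold change of mutant over control with its 95% interval for 9 members in each of the 4 populations and for their average. Mycl is left out. Open circles mark an adjusted p of 0.05 or more, which holds for all 9 members shown. The largest differences among these 9 are Mxd1 at -1.54 and Mxd3 at -1.86 in LT-HSC.

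Averaged over the 4 populations, no member was called, against 0.0189% of all genes. Mycl, with no count in 12 of 29 libraries, had the lowest p of the members (-3.02, 95% interval -4.94 to -1.11, adjusted p = 0.308). Myc differed by 0.20 (95% interval -0.05 to 0.44, adjusted p = 0.770) and Mycn by 0.17 (-0.23 to 0.57, 0.940). At an unadjusted p under 0.05, 1 member passed, where 7.51% of all genes did, and DESeq2 called none. No member's mutant effect differed between populations by the interaction test, which called 0% of all genes. Mxd1 had the lowest interaction p of the members (adjusted p = 0.689), it was the 1 member under 0.05 unadjusted, where 5.82% of all genes were, DESeq2 gave 0.228, and without control LT-HSC replicate 4 it was called (0.0351).

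The members were set beside lists of genes from the same pathway. The wider network genes Mlxip, Mga and Mlxipl were called in no comparison. Mlxip was at 97.1 to 180 CPM and Mga, a further Max partner, at 165 to 419 CPM over the 29 libraries. Among 21 cofactors and protein-level regulators of Myc, 1 was called in mutant MPP3 over LT-HSC (3.09% of all genes called) and in control MPP3 (1.46%) and control MPP4 (4.20%) over LT-HSC, each time Bin1, an adaptor known to bind Myc and restrain it. A single gene of 21 does not set the list apart from these shares. Bin1 was at 29.9, 14.6, 20.01 and 20.4 CPM in mutant MPP3 and 5.72, 6.10 and 3.09 CPM in mutant LT-HSC, with no overlap (2.07 ± 0.51; adjusted p = 0.0317). It was 1.503 ± 0.37 higher in control MPP3 (adjusted p = 0.0483) and 1.71 ± 0.36 higher in control MPP4 (0.00750) than in control LT-HSC on the log2 scale. The calls held in 18, 7 and 23 of 24 alternatives, and without control LT-HSC replicates 1 to 3 the adjusted p was 0.281 in control MPP3 and 0.240 in control MPP4. Skp2, a ubiquitin ligase subunit that targets Myc, was called in mutant MPP3 over mutant ST-HSC (1.09 ± 0.27; adjusted p = 0.0214), where 4.40% of all genes were, and in 21 of 24 alternatives.

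Known Myc targets of ribosome biogenesis lay mostly above 0 in progenitors over LT-HSC without calls. Of 28 tested, 18 were higher in mutant MPP3 and 24 in mutant MPP4 than in mutant LT-HSC, where 50.3% and 52.0% of all genes were, with none called and median log2 differences of 0.17 and 0.14, against 0.00 and 0.02 for all genes. In the control, 25 of 28 were higher in MPP3 and 25 in MPP4 than in LT-HSC, where 48.5% and 49.6% of all genes were, with none called and medians of 0.32 and 0.30, against -0.02 and -0.01 for all genes. Without control LT-HSC replicates 1 to 3, 22 and 20 of 28 were higher in control MPP3 and control MPP4, with medians of 0.21 and 0.10, against 0.05 for all genes in both. At an unadjusted p under 0.05, 2 and 3 of the 28 passed in mutant MPP3 and MPP4 over LT-HSC, where 14.1% and 10.4% of all genes did, and 3 and 1 in control MPP3 and MPP4 over LT-HSC, where 13.1% and 15.5% did, so these counts were near or below the shares of all genes. In mutant over control LT-HSC, 23 of 28 were higher, where 50.1% of all genes were, with a median of 0.22 against 0.00 for all genes, 1 under 0.05 unadjusted and none called; without control LT-HSC replicates 1 to 3, 19 were higher, with a median of 0.10 against 0.07. The ribosome biogenesis gene Nolc1 was the 1 called of the 28 in control MPP3 over control ST-HSC (1.202 ± 0.31; adjusted p = 0.0448), where 2.02% of all genes were, and the call held in 14 of 24 alternatives.

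Of 22 metabolic targets, Prps2, which makes the ribose donor of nucleotides, was the 1 called in control MPP4 over LT-HSC, a share near the 4.20% of all genes. It was at 104, 127, 67.9 and 116 CPM in control MPP4 and 46.1, 46.2, 42.3 and 52.1 CPM in control LT-HSC, with no overlap (1.16 ± 0.23; adjusted p = 0.00562), and the adjusted p was 0.529 without control LT-HSC replicates 1 to 3. Against ST-HSC, Prps2 was the 1 called of 22 in MPP4 of the mutant (1.06 ± 0.26; 0.0297) and of the control (1.26 ± 0.26; 0.0137). The shares of all genes called there were 2.33% and 1.66%. Srm, the spermidine synthase gene, was the 1 called of 22 in control MPP3 over control ST-HSC (1.38 ± 0.32; 0.0321), where 2.02% of all genes were. In the mutant over LT-HSC, Tfrc, the transferrin receptor gene, was higher in MPP3 (1.37 ± 0.29; 0.0113) and Ldha, the lactate dehydrogenase gene, was lower in MPP4 (-0.75 ± 0.16; 0.0113), each the 1 gene called of 22, where 3.09% and 2.17% of all genes were called. Of these calls beyond Prps2 over LT-HSC, each was lost in 1 to 6 of 24 alternatives. The called genes of this list therefore did not share a direction.

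Of 12 genes known to be repressed by Myc, 9 were tested in these comparisons. All 12 together summed to 269 to 371 CPM in mutant MPP3 and 319 to 372 CPM in mutant MPP4, against 419 to 562 CPM in mutant LT-HSC. In the control they summed to 288 to 348 CPM in MPP3 and 297 to 345 CPM in MPP4, against 375 to 497 CPM in LT-HSC. The sums were given no test. Cdkn1a, the p21 cell cycle inhibitor gene, was at 16.5, 57.6, 18.9 and 28.9 CPM in mutant MPP4 and 1.40, 6.33 and 4.01 CPM in mutant LT-HSC (2.95 ± 0.60; adjusted p = 0.00852), and it was higher in mutant MPP3 as well (2.17 ± 0.58; 0.0472). It was also higher in mutant MPP4 than in mutant ST-HSC (2.28 ± 0.52; 0.0203). The Cdkn1a calls held in 22, 10 and 21 of 24 alternatives. The share of all genes called was 3.09% in mutant MPP3 and 2.17% in mutant MPP4 over LT-HSC. In mutant MPP4 over ST-HSC it was 2.33%. Itga6, an integrin gene, was lower in mutant MPP3 (-1.26 ± 0.25; 0.00705) and mutant MPP4 (-1.15 ± 0.25; 0.0129) than in mutant LT-HSC, and both calls were lost without mutant LT-HSC replicate 1 (adjusted p up to 0.103). Neither Cdkn1a nor Itga6 was called in control MPP3 or control MPP4 over control LT-HSC. Gadd45a, a growth arrest gene, was lower in control MPP4 than in control LT-HSC (-2.47 ± 0.45; 0.00270), where 4.20% of all genes were called. It was called in no mutant comparison. Its control LT-HSC values of 59.7, 28.9, 26.2 and 8.75 CPM were highest in the 3 libraries high in S100a8. Without those 3 libraries the difference was -0.67 (adjusted p = 0.889).

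Among 3 tested targets of Mlx and the Mondo proteins, the glucose-responsive gene Txnip, an inhibitor of glucose uptake, and its relative Arrdc4 were lower in mutant MPP3. Txnip was at 75.3, 95.1, 63.1 and 112 CPM in mutant MPP3 and 302, 184 and 135 CPM in mutant LT-HSC (-1.28 ± 0.26; adjusted p = 0.00860). Arrdc4 was at 0.742, 7.77, 5.49 and 1.01 CPM in mutant MPP3 and 33.6, 19.6 and 13.5 CPM in mutant LT-HSC (-2.57 ± 0.62; 0.0285). Neither pair of groups overlapped, and 3.09% of all genes were called in this comparison. The 4 listed targets together summed to 82.9 to 159 CPM in mutant MPP3 and 188 to 405 CPM in mutant LT-HSC. In the control the sums were 97.0 to 146 CPM in MPP3 and 190 to 220 CPM in LT-HSC, which did not overlap either. No gene of this list was called in control MPP3 over control LT-HSC. The Txnip call was lost without mutant LT-HSC replicate 1 (adjusted p = 0.103), and the Arrdc4 call without mutant LT-HSC replicate 1 or 2 or mutant MPP3 replicate 4 (adjusted p up to 0.160). Both were also lower in mutant MPP3 than in mutant ST-HSC (Txnip -1.04 ± 0.25, 0.0179; Arrdc4 -2.53 ± 0.60, 0.0183), and Txnip was lower in control MPP3 than in control ST-HSC (-0.88 ± 0.22; 0.0403), a call that held in 9 of 24 alternatives. The share of all genes called in MPP3 over ST-HSC was 4.40% in the mutant and 2.02% in the control. Mlx itself was called in none of these comparisons.

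Part of the proliferation genes were called higher in progenitors over ST-HSC. Of 14, 7 were called higher in mutant MPP3 and 4 in mutant MPP4 than in mutant ST-HSC. In the control, 4 were called higher in MPP3 and 2 in MPP4 than in ST-HSC, and none was called lower. Of all genes, 4.40%, 2.33%, 2.02% and 1.66% were called in these 4 comparisons. By direction alone, 14 of 14 lay above 0 in control MPP3 and in control MPP4 over control ST-HSC. This was seen in the fit without control LT-HSC replicates 1 to 3, with medians of 1.29 and 0.93, against -0.04 and -0.03 for all genes. Against LT-HSC none of the 14 was called in MPP3 or MPP4 of either genotype. Their sum was 2057 to 2816 CPM in mutant LT-HSC and 2119 to 5395 CPM in control LT-HSC. It was lower in ST-HSC, at 1423 to 1640 CPM in mutant and 1223 to 1739 CPM in control libraries. Without control LT-HSC replicates 1 to 3, 1 control LT-HSC library was left. All 14 were then higher in control MPP3 and control MPP4 than in control LT-HSC (medians 0.89 and 0.56, against 0.05 for all genes). Mki67 was called lower in control ST-HSC than in control LT-HSC (-1.52, adjusted p = 0.0493), where 0.174% of all genes were. That call held in 8 of 24 alternatives. Mki67 was at 1409 to 1535 CPM in mutant MPP3 and 521 to 657 CPM in mutant ST-HSC (1.32 ± 0.16; adjusted p = 7.40e-05). Myc differed from mutant ST-HSC by -0.02 in mutant MPP3 (95% interval -0.46 to 0.42; adjusted p = 0.979) and -0.07 in mutant MPP4 (-0.51 to 0.37; 0.946). It differed from control ST-HSC by 0.42 in control MPP3 (-0.14 to 0.97; 0.471) and 0.63 in control MPP4 (0.11 to 1.16; 0.236). No gene of the 7 lists of the pathway and of proliferation was called between mutant and control cells in any population, and at most 3 genes of a list had an unadjusted p under 0.05.

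The genes whose level over the 29 libraries was most like that of Mycn, among 15914 other genes, were Itsn1 (r = 0.879), Gucy1a1 (0.857), Abcg3 (0.857), Lhcgr (0.841) and Neurl3 (0.837). For Myc they were Trim28 (0.845), Cmtm7 (0.832), Mlec (0.810), Ubap2l (0.800) and Eef1a1 (0.796). These correlations of log2 CPM are descriptions over libraries that share groups and depth. Among the members themselves, Myc and Mxd4 were the closest pair with r = 0.679, and Myc and Mycn had r = -0.333.

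The column headers begin with 1 of 2 numbers that no label explains, and each number covers libraries of all 8 groups. Under the first, Mycn averaged 7.45 CPM in mutant MPP3 (n = 2) and 61.1 CPM in mutant LT-HSC (n = 1), and 5.17 CPM in control MPP3 (n = 1) and 34.1 CPM in control LT-HSC (n = 2). Under the second it averaged 10.4 CPM in mutant MPP3 and 78.3 CPM in mutant LT-HSC, and 8.28 CPM in control MPP3 and 56.8 CPM in control LT-HSC (n = 2 each). Mycn was thus lower in MPP3 than in LT-HSC under both numbers. Myc averaged 365 CPM in control MPP4 and 172 CPM in control LT-HSC in the first, and 432 CPM in control MPP4 and 245 CPM in control LT-HSC in the second. Mxd1 averaged 56.1 CPM in mutant LT-HSC (n = 1) and 193 CPM in control LT-HSC (n = 2) in the first, and 45.1 CPM in mutant and 89.9 CPM in control LT-HSC in the second. The second average of the control covers 145 CPM in replicate 3 and 34.7 CPM in replicate 4. Replicate 4 lay below both mutant LT-HSC libraries under that number (51.8 and 38.4 CPM).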

How the data were processed

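Poly(A) RNA of sorted cells was sequenced, and the authors deposited 1 table of expected counts per Ensembl gene (38924 identifiers, 29 libraries). The submitters' processing notes name GRCm38, edgeR 3.5.3, SAMtools 0.1.18, Bowtie2 2.2.0 and RSEM 1.2.12, without their roles; further settings are not given in the sources used here. Symbols were taken from a gene name table (37607 identifiers matched, 1317 not).

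The expected counts were whole numbers as deposited and were used as such. Genes were filtered with filterByExpr (minimum count 10, minimum total 15), scaled by TMM and tested with edgeR 4.0.16 (R 4.3.3) by the robust quasi-likelihood test, the libraries of 1 genotype or 1 population per fit, all 29 for the average and interaction, with Benjamini-Hochberg adjustment over all genes tested. log2 CPM used a prior count of 2, and CPM per kb used exon bases of the GRCm38 annotation. Alternatives were DESeq2 1.42.0, limma 3.58.1 (voom), other scalings, no filter, no mitochondrial and Gm42418 counts, 1 fit for all libraries, replicate blocks and each library left out. Scripts were tested on simulated counts. Replicate pairs differed beyond counting noise (chi-square per degree of freedom 20.3 to 72.4 in 39 pairs), so none was merged.

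The members, the lists and the named genes (all members, the 5 genes nearest Myc and Mycn, and up to 4 genes of a list by p) were chosen with earlier results of these data known. The term for the leading number of the column headers, the fit without robust estimation and the alternatives run on genes of the lists were chosen after seeing the data. Mutant ST-HSC titles name Dnmt3a without the word for mutant, and the letter in the description was used with it.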

Additional observations from a re-analysis of the deposited data

Results flagged for a closer look

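In 4 of the 50 cases in which a member was measured in a group of 4 libraries, 1 library stood apart by Dixon's test; chance alone gives about 1 in 20. Myc was at 500.1 CPM in mutant MPP4 replicate 3, against 289 to 294 CPM in the other 3 libraries. Max was at 89.0 CPM in control LT-HSC replicate 3, against 153 to 157 CPM in the others. Mxd3 was at 18.03 CPM in control LT-HSC replicate 1, against 3.09 to 5.51 CPM in the others. Mxi1 was at 40.1 CPM in control MPP4 replicate 2, against 30.7 to 31.0 CPM in the others.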

How the results depend on the processing

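Mycn in MPP3 against LT-HSC was called under all 24 alternatives in both genotypes. Counts of members called changed as follows, with the main count in brackets. Among the 4 control populations (2), DESeq2, no filter, 1 fit for all 29 libraries and the term for the leading header number gave 4, and leaving out control LT-HSC replicates 1 to 3 gave 1. In control MPP3 against LT-HSC (2), no filter, that term and leaving out those 3 libraries gave 1, and in control MPP4 against LT-HSC (4) leaving them out gave 0. In control MPP4 against MPP3 (0), DESeq2, upper-quartile scaling, no filter and that term gave 1. DESeq2 gave 1 in control ST-HSC against LT-HSC (0) and 1 in mutant against control LT-HSC (0). With each library left out in turn, the counts ran from 2 to 3 among the 4 control populations, 1 to 2 in control MPP3 against LT-HSC, 1 to 4 in control MPP4 against LT-HSC, and 0 to 1 in control ST-HSC against LT-HSC, control MPP3 against ST-HSC, control MPP4 against MPP3, mutant MPP4 against LT-HSC, mutant MPP3 against ST-HSC, mutant MPP4 against MPP3, mutant against control LT-HSC and the interaction. Mxd1 turned in sign without control LT-HSC replicates 1 to 3, with log2 differences of 0.48 (ST-HSC), 0.19 (MPP3) and 0.29 (MPP4) over control LT-HSC and 0.49 in mutant over control LT-HSC; 1 control LT-HSC library is then left, and it is assumed to vary like the other groups. The cause was not tested beyond these fits.

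With a replicate block on the number in the description, 1 member was called among the 4 control populations and 1 in control MPP3 against LT-HSC, and Mycn in control MPP4 against LT-HSC had adjusted p = 0.0530. With a block on the replicate number in the title, Mxd1 was called in mutant against control LT-HSC (-1.87; adjusted p = 0.000392). No label says what the description number stands for, and the samples were not taken as paired. Each description number covers libraries of 1 genotype, at most 1 per population, so a shared source is possible. Deviations were correlated above 0.1 in 6 of 39 pairs with the same description number and 10 of 118 with different ones. The median correlations were 0.020 and -0.008. For the title number, 0 of 13 pairs with the same and 8 of 39 with different numbers exceeded 0.1. These counts do not decide whether libraries share a source. Depth limits Mycl, with no count in 12 of 29 libraries, and groups of 3 or 4 libraries limit the rest.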
